A study of Mus musculus with 15 samples.

Results

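A set of 10 mouse genes of costimulation and immune checkpoints was followed across bone marrow-derived macrophages (BMDMs) under 5 conditions. The genes are *Cd80*, *Cd86*, *Icosl*, *Cd40*, *Cd83*, *Cd274*, *Pdcd1lg2*, *Cd276*, *Vsir* and *Havcr2*. They were chosen by name, matched by Ensembl gene identifier, and make up 10 of the 53465 genes in the count matrix. Most encode ligands, whereas *Cd40* and *Havcr2* encode receptors.

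Bone marrow cells of mice aged 8 to 12 weeks were grown into macrophages with M-CSF, and the labels give this culture for control and treated cells alike. Control BMDMs received no IL-4, IL-13 or IL-6. The other groups received IL-4 at 10 ng/ml, alone or with IL-6, or IL-13 at 40 ng/ml, alone or with IL-6, for 24 h, and IL-6 was always given at 40 ng/ml. RNAseq was done on 3 replicates per group, 15 libraries in all, and no group received IL-6 alone. The study calls its replicates biological, and the labels do not say whether they are separate cultures or animals, so p-values measure the spread between these libraries.

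T cells read the peptide on an MHC molecule together with second signals from the presenting cell. CD80 and CD86 bind CD28, which costimulates, and CTLA-4, which inhibits, and ICOS ligand binds ICOS. CD40 is the receptor through which CD40 ligand on T cells activates macrophages. PD-L1, encoded by *Cd274*, and PD-L2, encoded by *Pdcd1lg2*, bind PD-1 and restrain T cells, and B7-H3 (*Cd276*), VISTA (*Vsir*) and TIM-3 (*Havcr2*) are further checkpoint proteins found on myeloid cells. Coordinates below are those of GRCm38, on the plus strand unless stated.

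Total counts per library ranged from 17001352 to 18918686, and replicates differed by more than counting noise in every group. The spread was unequal, with a biological coefficient of variation of 14.9% in IL-4+IL-6, 10.9% in IL-13 and 7.39% in IL-6+IL-13, against 4.49% in control and 4.54% in IL-4, while the fit pooled the spread over all groups. The macrophage markers *Adgre1* (803 to 1460 normalized CPM) and *Csf1r* (1421 to 2286) were high in every library. Of the 8 markers on the macrophage list, 1 was higher and 5 lower with IL-4 than in control, 3 higher and 3 lower with IL-13, 3 higher and 5 lower with IL-4+IL-6 than with IL-4, and 3 higher and 2 lower with IL-6+IL-13 than with IL-13. *Mertk* was at 132 to 156 CPM in control and 7.15 to 18.8 in treated libraries. Normalized CPM are counts relative to the library total, scaled with TMM factors. The control libraries also held markers of other cells that were near 0 in all treated libraries. The summed level of 7 granulocyte markers was 382 to 456 CPM in control and 0.979 to 2.04 in the treated libraries, with *S100a9* at 143 to 173 against at most 0.214. The 5 B cell markers summed to 10.8 to 12.3 CPM against 0.567 to 1.66, the 6 mast cell, basophil and eosinophil markers to 19.0 to 22.0 against at most 0.332, the 5 stromal markers to 16.3 to 20.9 against at most 0.482, and the 8 T and NK cell markers to 24.5 to 30.2 against at most 1.12, of which *Cd4* alone made up 24.1 to 29.6 CPM in control. Of the other markers on that list, *Cd3e* was at 0 in all libraries, *Cd3d* and *Cd8a* were at most 0.224 CPM, and *Klrb1c* overlapped between control and IL-4. The dendritic cell markers *Flt3*, *Ccr7* and *Siglech* reached 5.32 to 8.87 CPM in control and at most 0.214 in treated libraries. *Itgax*, also expressed by macrophages, made up most of that list. Of its 10 markers, 9 were tested, with 1 higher and 7 lower than control with IL-4 and with IL-4+IL-6. With IL-13, 0 were higher and 9 lower, and with IL-6+IL-13, 0 and 8. *Itgax* was at 272 to 311 CPM in control and 310 to 353 with IL-4. *Cd209a* was at 1.96 to 2.55 CPM in control and higher with IL-4+IL-6, and *Zbtb46* libraries overlapped between control and IL-4+IL-6. Every comparison with control therefore moves with the markers of other cells that were near 0 in treated libraries, and their part in the results was not tested. In bulk RNA, fewer cells of a type and less RNA per cell cannot be told apart. Comparisons among the treated groups have those lists near 0 on both sides. The dendritic cell list, mostly *Itgax*, moved with IL-6 and summed to 312 to 355 CPM with IL-4, 57.9 to 73.7 with IL-4+IL-6, 193 to 213 with IL-13 and 59.0 to 66.0 with IL-6+IL-13, while *Flt3* and *Siglech* were at or near 0 in all of them. Against the direction of the sum, *Cd209a* was at 0 to 0.164 CPM with IL-4 and 10.5 to 12.5 with IL-4+IL-6, and at 0 with IL-13 and 1.84 to 2.50 with IL-6+IL-13, and *Kmo* was at 0.0554 to 0.600 CPM with IL-4 and 1.12 to 1.87 with IL-4+IL-6. Over both IL-6 comparisons, 2 markers of the list were higher and 1 lower.

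**Figure D1:**
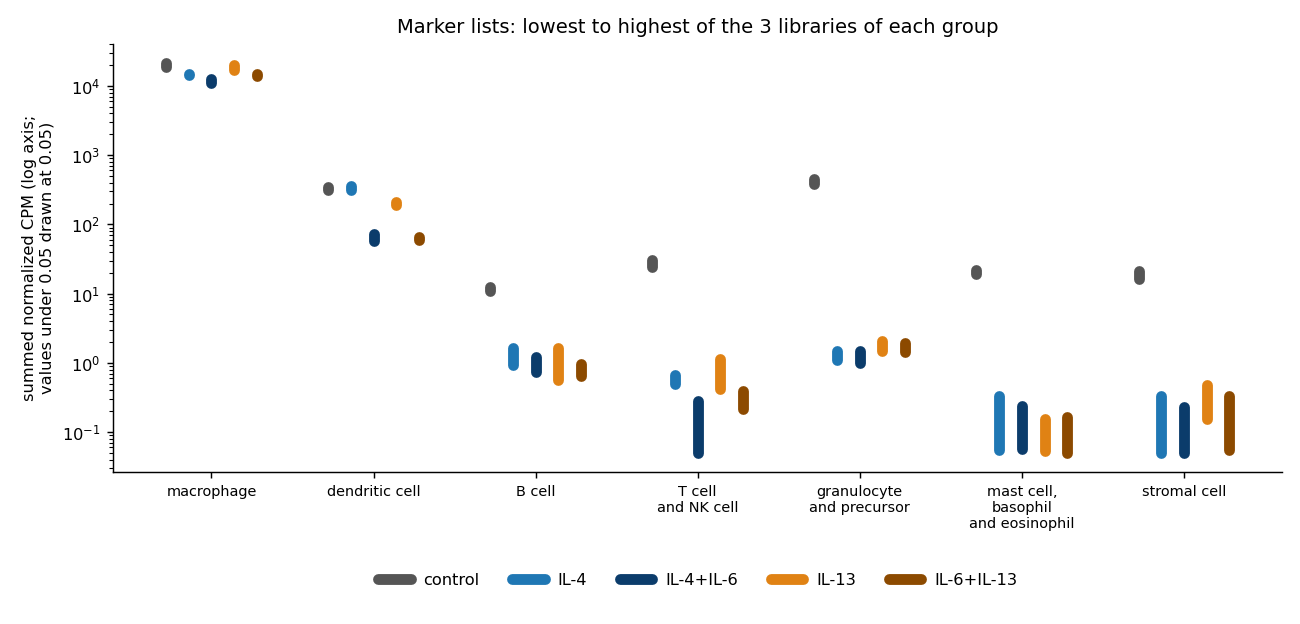
Summed normalized CPM (log axis, values under 0.05 drawn at 0.05) of the marker lists, each bar running from the lowest to the highest of the 3 libraries of a group; the erythroid list, at most 0.677 CPM, is not drawn. The lists of other cell types are high in the 3 control libraries and near 0 in the 12 treated libraries, apart from the dendritic cell list.

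The PD-1 ligand genes lie next to each other on chromosome 19 (GRCm38), *Cd274* (ENSMUSG00000016496) at chr19:29367455-29388095 and *Pdcd1lg2* (ENSMUSG00000016498) at chr19:29410919-29471161, both on the plus strand and 22823 bases apart. Their upstream sequences are shown because these neighbors moved together when IL-6 was added and apart under IL-4 or IL-13 alone. The 250 bases before each RefSeq gene start (GRCm38.p6), which for *Cd274* differs from the Ensembl start above, are given 5′ to 3′ on the plus strand, and capitals mark the match to a STAT-type motif, TTC and GAA with 4 bases between them.

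Cd274, chr19:29367188-29367437: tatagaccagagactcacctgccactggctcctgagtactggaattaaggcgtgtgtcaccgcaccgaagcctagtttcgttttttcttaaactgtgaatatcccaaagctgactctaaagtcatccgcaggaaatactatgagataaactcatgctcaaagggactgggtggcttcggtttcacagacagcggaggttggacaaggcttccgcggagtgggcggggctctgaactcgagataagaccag
Pdcd1lg2, chr19:29410669-29410918: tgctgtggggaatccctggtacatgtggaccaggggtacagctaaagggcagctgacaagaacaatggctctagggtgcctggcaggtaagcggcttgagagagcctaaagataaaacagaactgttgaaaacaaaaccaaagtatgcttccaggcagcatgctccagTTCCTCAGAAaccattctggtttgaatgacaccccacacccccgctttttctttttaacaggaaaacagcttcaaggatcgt

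RefSeq windows were matched for 7 of the 10 genes, of which those of *Cd80*, *Cd276* and *Icosl* lie wholly or partly inside the Ensembl gene coordinates printed here, and 5 motifs were searched on both strands. Of the 32851 RefSeq windows of this length, 7.02% held TTC and GAA with 3 bases between them, 5.85% the same with 4 bases between, 2.98% TTTC and TTTC with 2 bases between, 1.41% GGG and TTTCC with 2 bases between, and 4.46% TGACTCA. *Pdcd1lg2* was the only one of the 7 genes with a match, to TTC and GAA with 4 bases between, beginning 82 bases before the RefSeq gene start. No other motif overlapped that match. A match describes these letters, not a bound site, and a window without one says nothing about a factor.

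**Figure D2:**
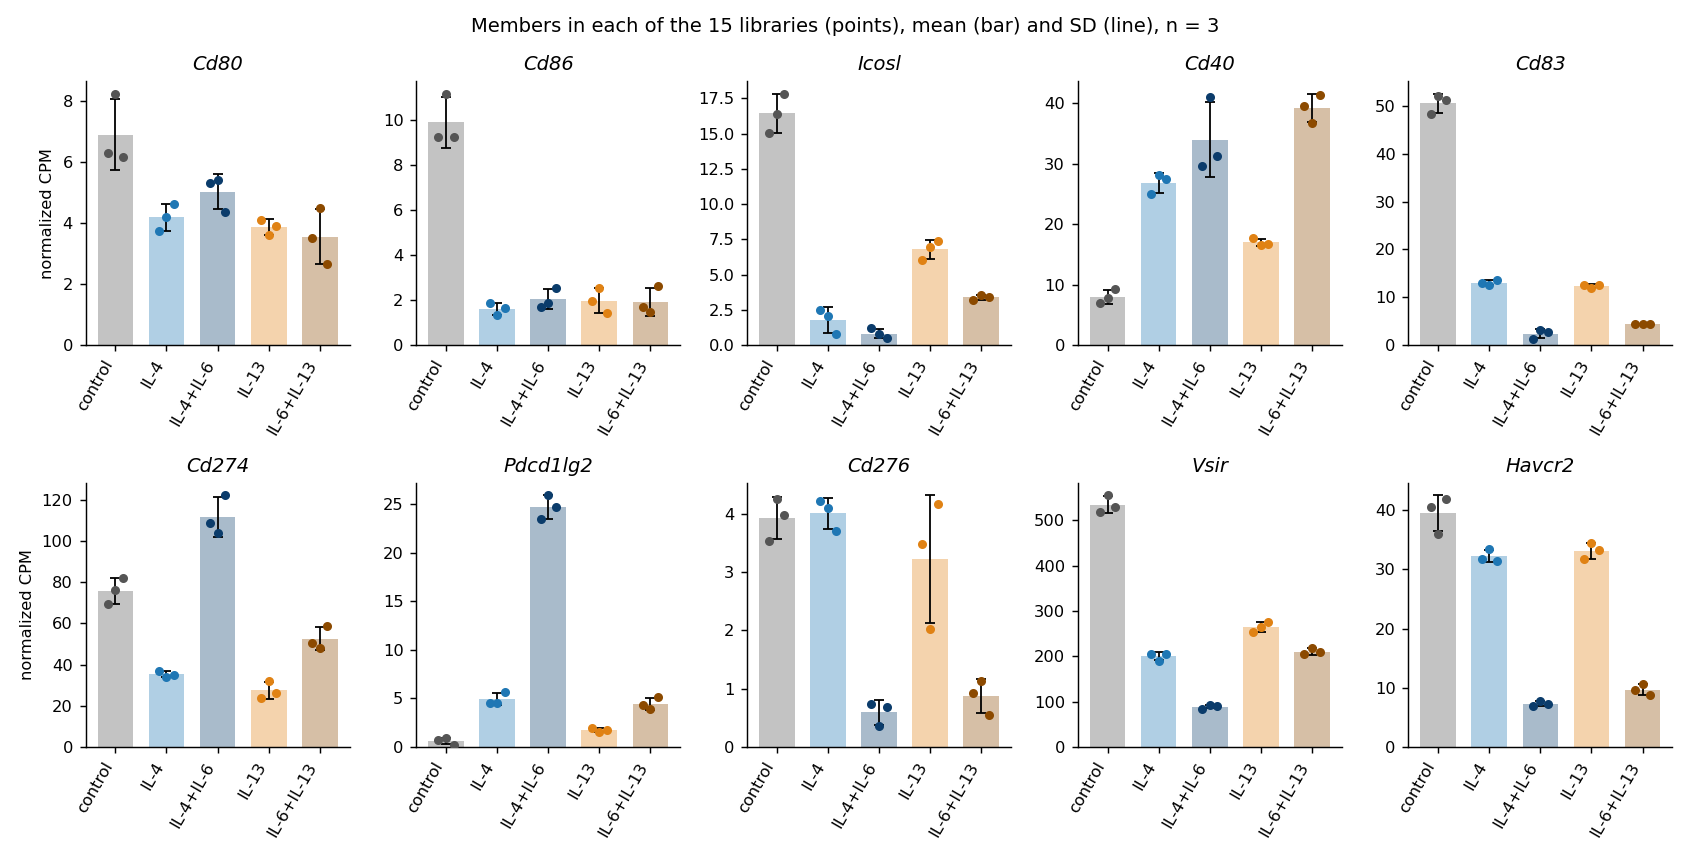
Normalized CPM of each of the 10 genes by group, with points for the 15 libraries, bars for the mean and lines for the SD (n = 3). *Pdcd1lg2* is lowest in control and highest in IL-4+IL-6, whereas *Vsir* and *Cd83* are highest in control.

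*Pdcd1lg2* counts were 13, 16 and 4 in the control libraries, and its level rose in each treated group. Its normalized CPM were 0.677, 0.887 and 0.224 in control, 4.55, 4.54 and 5.62 with IL-4, 23.5, 25.9 and 24.7 with IL-4+IL-6, 1.98, 1.58 and 1.70 with IL-13, and 4.28, 3.91 and 5.12 with IL-6+IL-13. The control libraries lay below all others, and the IL-4+IL-6 libraries above all others. *Pdcd1lg2* was 8.10-fold higher with IL-4 than in control (log2 fold change 3.02, SE 0.257, adjusted p = 1.81e-08, edgeR quasi-likelihood test with Benjamini-Hochberg adjustment, as for all adjusted p-values here) and 2.91-fold higher with IL-13 (1.54, SE 0.299, adjusted p = 0.00028). Adding IL-6 raised it another 5.04-fold over IL-4 (2.33, SE 0.169, adjusted p = 5.17e-09) and 2.52-fold over IL-13 (1.33, SE 0.215, adjusted p = 0.000129). The IL-4+IL-6 level was 40.8-fold that of control and 5.57-fold that of IL-6+IL-13 (2.48, SE 0.171, adjusted p = 9.29e-09). An antisense gene, *A930007I19Rik*, lies on the opposite strand within *Pdcd1lg2*. Its level was 7.07 to 8.02 CPM in control, 1.02 to 1.47 with IL-4, 1.96 to 2.36 with IL-4+IL-6, 0.643 to 0.927 with IL-13 and 1.39 to 1.74 with IL-6+IL-13. It was thus opposite to *Pdcd1lg2* against control and higher with IL-6, as *Pdcd1lg2* was, without overlap of libraries. Since the strand setting of the counting is not stated, reads of the pair cannot be told apart.

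*Cd274* moved the other way under IL-4 or IL-13 alone. Its levels were 69.6, 76.1 and 82.1 CPM in control, 37.0, 34 and 35 with IL-4, and 23.9, 32.1 and 26.4 with IL-13. With IL-6 they were 109, 104 and 122 over IL-4, and 50.4, 48.3 and 58.8 over IL-13. All single-cytokine libraries lay below control, the IL-4+IL-6 libraries above it, and the IL-6+IL-13 libraries between the IL-4 and control libraries. *Cd274* was 2.15-fold lower with IL-4 (log2 fold change -1.10, SE 0.105, adjusted p = 7.79e-08) and 2.76-fold lower with IL-13 (-1.47, SE 0.107, adjusted p = 3.40e-09). IL-6 raised it 3.16-fold over IL-4 (1.66, SE 0.106, adjusted p = 9.79e-10) and 1.91-fold over IL-13 (0.93, SE 0.107, adjusted p = 3.06e-06). Against control it ended 1.47-fold higher with IL-4+IL-6 and 1.45-fold lower with IL-6+IL-13.

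Per gene length, PD-L2 transcripts took a growing share of the PD-1 ligand transcripts. FPKM, fragments per kilobase of gene relative to the library total, are the authors' deposited values and allow levels of different genes to be compared. *Pdcd1lg2* made up 0.598% to 2.50% of the summed FPKM of *Cd274* and *Pdcd1lg2* in control, 9.76% to 15.4% with IL-13, 15.1% to 16.1% with IL-6+IL-13, 21.3% to 26.1% with IL-4 and 30.8% to 35.5% with IL-4+IL-6. The IL-13 and IL-6+IL-13 ranges overlap, and the others do not. *Cd274* stayed the larger of the pair in every library.

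**Figure D3:**
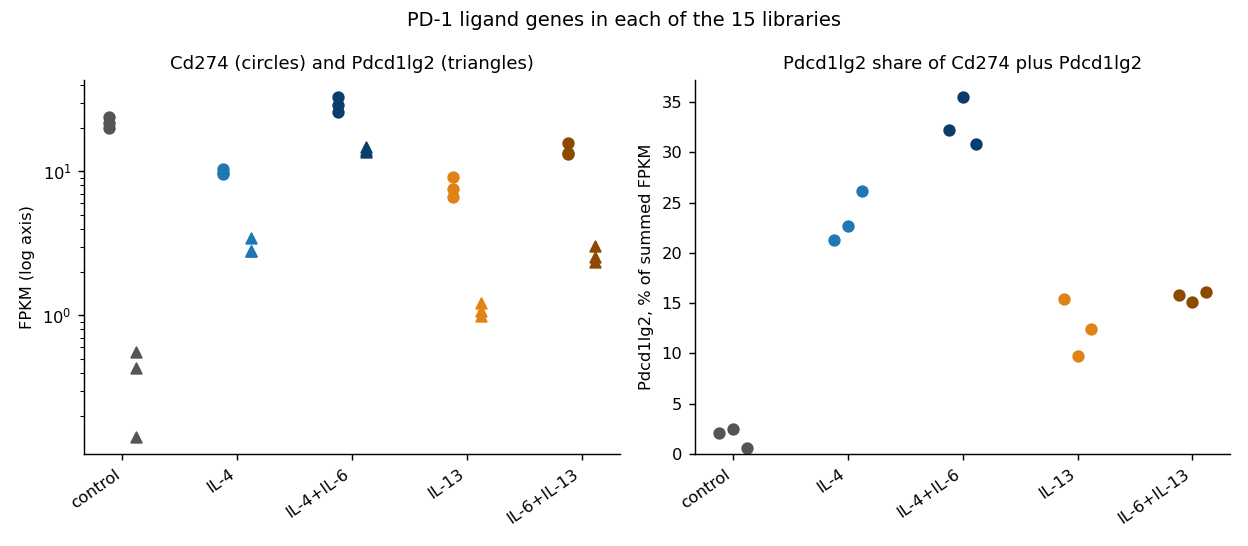
Deposited FPKM (log axis) of *Cd274* (circles) and *Pdcd1lg2* (triangles) in each library, by group, and the share of their sum from *Pdcd1lg2* in percent. The share is 0.598% to 2.50% in control and 30.8% to 35.5% with IL-4+IL-6.

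Of the CD28 family ligands, *Cd86* (ENSMUSG00000022901, chr16:36603869-36666081, minus strand) fell and did not change detectably with IL-6. Its levels were 9.27, 11.2 and 9.26 CPM in control, 1.87, 1.33 and 1.64 with IL-4, 1.70, 1.89 and 2.53 with IL-4+IL-6, 1.98, 2.53 and 1.44 with IL-13, and 1.68, 1.46 and 2.61 with IL-6+IL-13. All treated libraries lay below the control libraries and overlapped each other. *Cd86* was 6.11-fold lower with IL-4 (log2 fold change -2.61, SE 0.230, adjusted p = 2.82e-08) and 5.0-fold lower with IL-13 (-2.32, SE 0.223, adjusted p = 1.16e-07). The IL-6 difference was 0.34 over IL-4 (95% interval -0.23 to 0.90) and -0.04 over IL-13 (-0.59 to 0.51), at counts of 24 to 47 per library in treated cells.

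*Cd80* (ENSMUSG00000075122, chr16:38455561-38496335) fell less. Its levels were 6.30, 8.26 and 6.17 CPM in control, 3.75, 4.21 and 4.64 with IL-4, 5.33, 5.42 and 4.38 with IL-4+IL-6, 4.12, 3.60 and 3.92 with IL-13, and 3.53, 4.50 and 2.67 with IL-6+IL-13. It was 1.65-fold lower with IL-4 (adjusted p = 0.00195) and 1.78-fold lower with IL-13 (adjusted p = 0.000771), and neither IL-6 comparison passed the test (0.26, 95% interval -0.13 to 0.66, and -0.12, -0.53 to 0.29). IL-4+IL-6 was 1.37-fold below control (adjusted p = 0.0293), a call lost without control replicate 2 (adjusted p = 0.154), without IL-4+IL-6 replicate 3 (0.10) and with no filter on low counts (0.0702). Per length, *Cd80* was 1.43 to 1.59 times *Cd86* in the control libraries and 2.2 to 6.82 times in the treated ones.

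*Icosl* (ENSMUSG00000000732, chr10:78069302-78083913) separated IL-4 from IL-13. Its levels were 15.1, 16.4 and 17.8 CPM in control, 2.52, 2.1 and 0.764 with IL-4, 1.19, 0.766 and 0.518 with IL-4+IL-6, 6.05, 6.98 and 7.37 with IL-13, and 3.18, 3.53 and 3.45 with IL-6+IL-13. *Icosl* was 9.11-fold lower with IL-4 (log2 fold change -3.19, SE 0.249, adjusted p = 5.76e-09) and 2.41-fold lower with IL-13 (-1.27, SE 0.211, adjusted p = 5.98e-05), and 3.78-fold lower with IL-4 than with IL-13 (-1.92, SE 0.261, adjusted p = 6.38e-05), at doses that differ between the cytokines. IL-6 lowered it 2.01-fold over IL-13 (-1.0, SE 0.239, adjusted p = 0.00426). Over IL-4 the fall was 2.16-fold (-1.11, SE 0.358, adjusted p = 0.0199) with overlapping libraries of 9 to 47 counts, and the call was lost with only the compared groups fitted (adjusted p = 0.0939) and without IL-4 replicate 1 (0.121), IL-4 replicate 2 (0.0690) or IL-4+IL-6 replicate 3 (0.0712).

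*Cd40* (ENSMUSG00000017652, chr2:165055627-165072948), the costimulatory receptor, rose with each treatment. Its levels were 7.03, 7.76 and 9.31 CPM in control, 25.0, 28.1 and 27.4 with IL-4, 29.5, 41.1 and 31.2 with IL-4+IL-6, 17.7, 16.6 and 16.7 with IL-13, and 39.6, 36.8 and 41.4 with IL-6+IL-13. No treated library overlapped control. *Cd40* was 3.34-fold higher with IL-4 (log2 fold change 1.74, SE 0.128, adjusted p = 2.64e-09), 2.11-fold higher with IL-13 (1.08, SE 0.131, adjusted p = 1.86e-06), and IL-6 raised it 2.31-fold over IL-13 (1.21, SE 0.118, adjusted p = 4.18e-07). Over IL-4 the IL-6 step was 1.26-fold (0.34, SE 0.115, adjusted p = 0.0267), a call lost without IL-4+IL-6 replicate 2 (adjusted p = 0.201), without IL-4 replicate 1, 2 or 3 (0.126, 0.0542 and 0.0649), with upper-quartile scaling (0.10) and with only the compared groups fitted (0.104).

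*Cd83* (ENSMUSG00000015396, chr13:43784775-43803132), which encodes a surface protein of activated antigen-presenting cells, fell in steps. Its levels were 48.2, 52.1 and 51.2 CPM in control, 13, 12.6 and 13.7 with IL-4, 1.30, 3.18 and 2.76 with IL-4+IL-6, 12.6, 11.9 and 12.5 with IL-13, and 4.40, 4.39 and 4.39 with IL-6+IL-13. It fell 3.86-fold with IL-4 (log2 fold change -1.95, SE 0.137, adjusted p = 1.41e-09) and 4.09-fold with IL-13 (-2.03, SE 0.137, adjusted p = 1.22e-09), and again with IL-6, 5.41-fold over IL-4 (-2.44, SE 0.176, adjusted p = 4.93e-09) and 2.80-fold over IL-13 (-1.49, SE 0.160, adjusted p = 1.43e-06). IL-4 and IL-13 did not differ detectably (0.08, 95% interval -0.22 to 0.38).

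Among the other checkpoint genes, *Cd276* (ENSMUSG00000035914, chr9:58524298-58555437, minus strand) responded to IL-6 and not detectably to IL-4 or IL-13. Its levels were 3.54, 4.27 and 3.98 CPM in control, 4.23, 4.10 and 3.71 with IL-4, 0.737, 0.354 and 0.691 with IL-4+IL-6, 3.48, 2.03 and 4.17 with IL-13, and 0.926, 1.14 and 0.556 with IL-6+IL-13. The IL-6 libraries held 6 to 21 counts and did not overlap the others. IL-6 lowered *Cd276* 6.67-fold over IL-4 (log2 fold change -2.74, SE 0.314, adjusted p = 1.68e-06) and 3.68-fold over IL-13 (-1.88, SE 0.298, adjusted p = 0.000111). Against control, the difference was 0.03 with IL-4 (95% interval -0.47 to 0.53) and -0.28 with IL-13 (-0.79 to 0.24).

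*Havcr2* (ENSMUSG00000020399, chr11:46454935-46481255) had a like pattern at a higher level. Its levels were 40.6, 36.1 and 41.9 CPM in control, 31.8, 33.4 and 31.4 with IL-4, 6.86, 7.72 and 7.26 with IL-4+IL-6, 31.8, 34.5 and 33.3 with IL-13, and 9.66, 10.6 and 8.85 with IL-6+IL-13. IL-6 lowered it 4.42-fold over IL-4 (log2 fold change -2.15, SE 0.0939, adjusted p = 7.76e-12) and 3.42-fold over IL-13 (-1.77, SE 0.0904, adjusted p = 1.01e-10). The steps from control were 1.23-fold down with IL-4 (adjusted p = 0.0044) and 1.19-fold down with IL-13 (adjusted p = 0.0141). With no filter on low counts both were lost (adjusted p = 0.110 and 0.183), and the IL-13 call was also lost without control replicate 1 (0.0547), control replicate 3 (0.0769) or IL-13 replicate 1 (0.0934).

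*Vsir* (ENSMUSG00000020101, chr10:60346851-60372684), the most abundant of the 10 in control, fell in each treated group. Its levels were 519, 556 and 530 CPM in control, 205, 191 and 206 with IL-4, 84.3, 91.5 and 89.8 with IL-4+IL-6, 254, 264 and 277 with IL-13, and 204, 218 and 209 with IL-6+IL-13. *Vsir* was 2.67-fold lower with IL-4 (log2 fold change -1.42, SE 0.0603, adjusted p = 2.45e-12) and 2.02-fold lower with IL-13 (-1.01, SE 0.0597, adjusted p = 2.20e-10). IL-6 lowered it another 2.27-fold over IL-4 (-1.18, SE 0.0610, adjusted p = 6.36e-11) and 1.26-fold over IL-13 (-0.33, SE 0.0595, adjusted p = 0.000364). *Cdh23*, on the opposite strand of the same locus, was at 0.46 to 3.28 CPM.

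All 10 genes passed the filter on low counts and were tested among 13938. With IL-4, 2 of the 10 were higher than control (32.1% of all tested genes were) and 7 lower (35.9%), and 7 were called beyond 2-fold, against 26.1% of all tested genes. With IL-13, 2 were higher (29.0% of tested genes) and 7 lower (31.1%), and 7 were beyond 2-fold, against 20.3%. Adding IL-6 to IL-4 gave 3 higher (20.7% of tested genes) and 5 lower (18.7%), and 7 beyond 2-fold, against 11.8%. Fitting the compared groups alone gave 2 higher and 4 lower, with 4355 of 12671 tested genes called in either direction. Adding IL-6 to IL-13 gave 3 higher (12.1% of tested genes) and 5 lower (13.5%), and 6 beyond 2-fold, against 7.25%. The median size of the log2 change with IL-6 was 1.42 over IL-4 and 1.11 over IL-13 for the 10 genes, against 0.30 and 0.21 for all tested genes. The 10 genes were chosen with earlier results of these data known. The shares and sizes here and below therefore describe them and do not test the set. With IL-4+IL-6, 3 were higher than control (35.4% of tested genes) and 7 lower (37.5%), and with IL-6+IL-13, 2 were higher (31.9%) and 8 lower (32.1%). The comparisons with control share the control libraries.

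**Figure D4:**
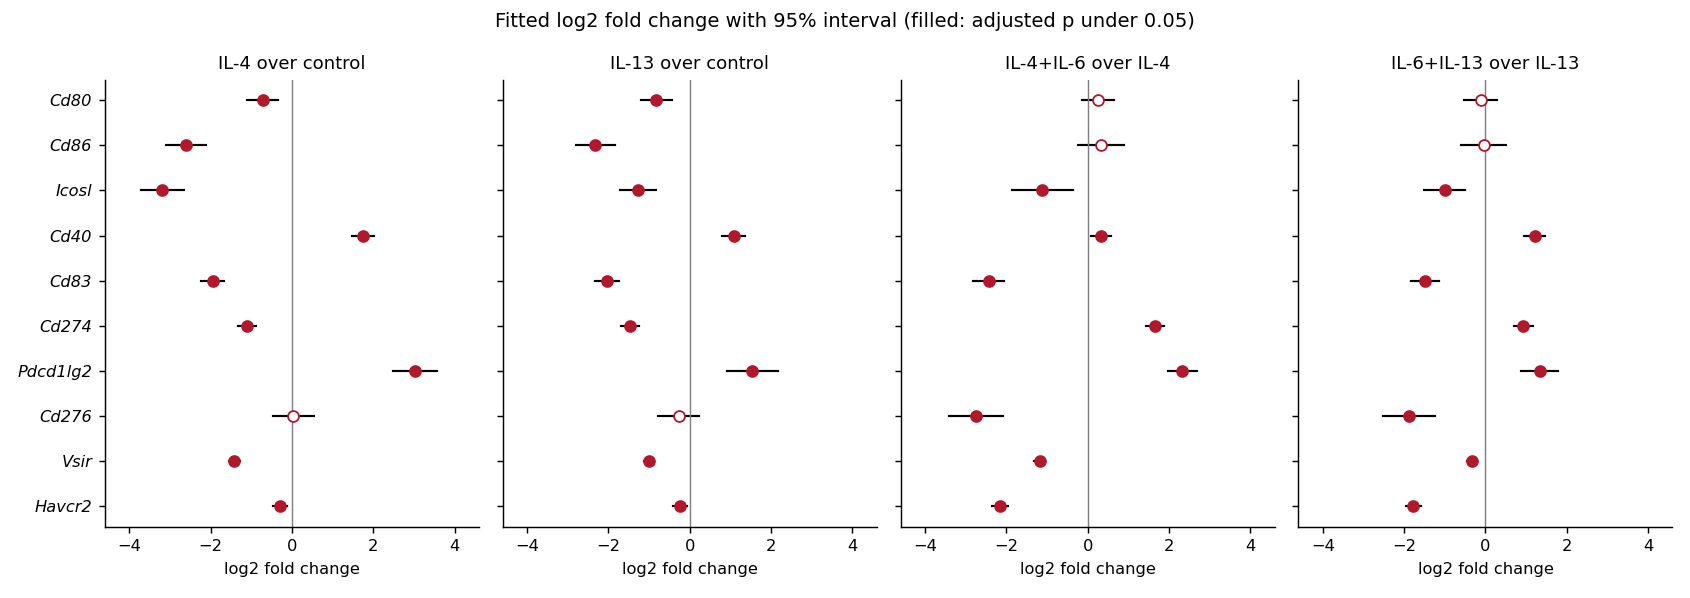
Log2 fold change of each of the 10 genes, with 95% intervals, for IL-4 and IL-13 over control and for adding IL-6 to each; filled points have an adjusted p under 0.05. *Pdcd1lg2* has the largest rise over control with IL-4 and with IL-13, and *Cd276* the largest fall when IL-6 was added.

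The comparison of the IL-6 steps asked whether IL-6 acted differently beside IL-4 and beside IL-13. Of the 10 genes, 5 differed in this interaction test, against 7.64% of tested genes. The difference (log2 IL-6 effect with IL-4 minus that with IL-13) was positive for 2 (3.22% of tested genes), *Cd274* (0.73, SE 0.149, adjusted p = 0.00466) and *Pdcd1lg2* (1.00, SE 0.278, adjusted p = 0.0353), which rose more over IL-4. It was negative for 3 (4.42% of tested genes), *Cd83* (-0.95, SE 0.244, adjusted p = 0.0217) and *Vsir* (-0.85, SE 0.0848, adjusted p = 6.13e-06), which fell more over IL-4, and for *Cd40* (-0.87, SE 0.164, adjusted p = 0.00234), which rose more over IL-13. The *Pdcd1lg2* call was lost on leaving out any of 8 single libraries, IL-4 replicate 1 or 2, IL-4+IL-6 replicate 1, any IL-13 replicate, or IL-6+IL-13 replicate 1 or 2 (adjusted p from 0.0502 to 0.104), and the *Cd83* call with only the 4 treated groups fitted (0.0564). *Havcr2* (-0.37, adjusted p = 0.107) and *Cd276* (-0.86, adjusted p = 0.359) did not pass, nor did *Cd80*, *Cd86* and *Icosl*.

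**Figure D5:**
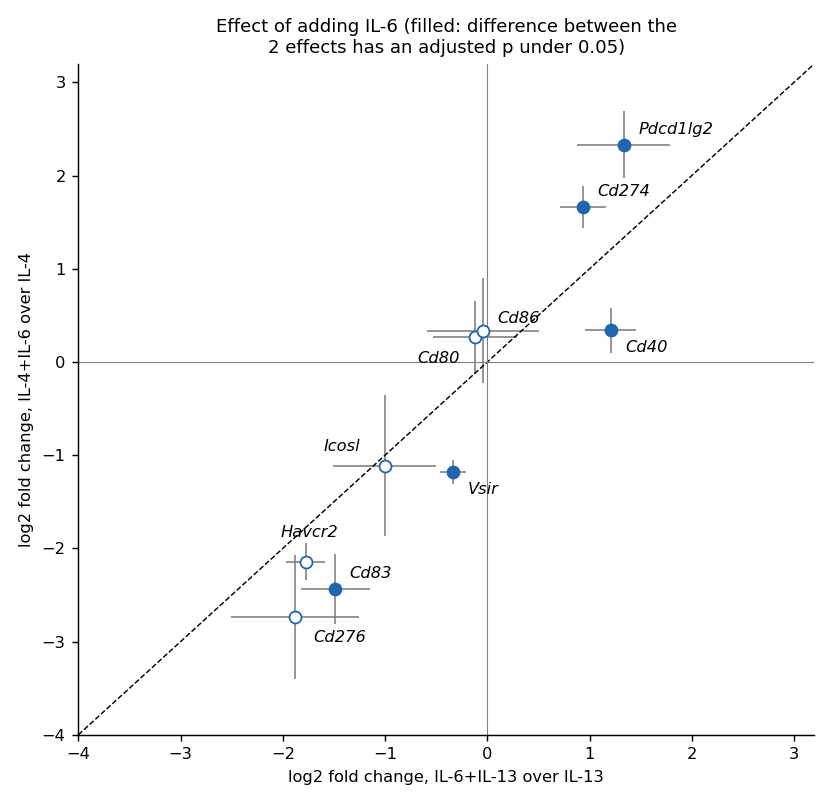
Log2 fold change on adding IL-6 to IL-13 (x axis) and to IL-4 (y axis) for each of the 10 genes, with 95% intervals; the dashed line marks equal effects, and filled points have an adjusted p under 0.05 for the difference. *Cd40* lies below the line at 1.21 and 0.34, and *Pdcd1lg2* above it at 1.33 and 2.33.

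Between IL-4 and IL-13 without IL-6, at their different doses, 3 genes were higher with IL-4 (5.16% of tested genes) and 2 lower (7.61%). *Pdcd1lg2* was 2.79-fold higher with IL-4 (adjusted p = 0.00011), *Cd40* 1.58-fold higher (adjusted p = 0.00102) and *Cd274* 1.29-fold higher (adjusted p = 0.0348), and *Vsir* was 1.32-fold lower (adjusted p = 0.000149) beside *Icosl* above. The *Cd274* call was lost without IL-4 replicate 1, 2 or 3 (adjusted p = 0.118, 0.0630 and 0.0836) and without IL-13 replicate 1 or 3 (0.0849 and 0.133). With IL-6 present, 2 were higher beside IL-4 (15.8% of tested genes) and 4 lower (15.5%). *Cd274* was 2.13-fold higher with IL-4+IL-6 than with IL-6+IL-13, beside *Pdcd1lg2* above. *Icosl* was 4.07-fold lower (adjusted p = 0.000136), *Vsir* 2.38-fold lower and *Havcr2* 1.33-fold lower (adjusted p = 0.00468). *Cd83* was 1.82-fold lower (adjusted p = 0.00282, and 0.0529 with only the compared groups fitted). *Cd40* did not pass (-0.21, adjusted p = 0.175) but did without IL-4+IL-6 replicate 2 (-0.37, adjusted p = 0.00734), and *Cd80* did not pass (0.50, adjusted p = 0.055) but did without IL-4+IL-6 replicate 3 (0.0372) or IL-6+IL-13 replicate 2 (0.0178).

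Per length, *Vsir* stood first in control (111.3 ± 2.95 FPKM, SD, n = 3), IL-4 (40.4 ± 1.56), IL-13 (54.2 ± 2.81) and IL-6+IL-13 (41.0 ± 1.73). In IL-4+IL-6 *Cd274* stood first (29.2 ± 3.66 FPKM) and *Vsir* second (16.7 ± 0.747), with no overlap of libraries. *Pdcd1lg2* moved from the last place in control (0.377 ± 0.212 FPKM) to the third in IL-4+IL-6 (14.2 ± 0.492). The lowest means were *Icosl* with IL-4 (0.393 FPKM), *Cd276* with IL-4+IL-6 (0.155) and IL-6+IL-13 (0.234), and *Cd86* with IL-13 (0.556). Neighbors in the order whose libraries overlapped included *Cd274* and *Cd83* in control, *Cd86* and *Icosl* with IL-4, *Icosl* and *Cd276* with IL-4+IL-6, *Cd276* and *Cd86* with IL-13, and *Pdcd1lg2* and *Cd80* with IL-6+IL-13. The ratio of *Vsir* to *Cd274* FPKM was 4.66 to 5.39 in control, 4.01 to 4.24 with IL-4, 5.95 to 7.67 with IL-13, 2.57 to 3.26 with IL-6+IL-13 and 0.530 to 0.636 with IL-4+IL-6.

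Of 6 binding partners of these proteins (*Cd28*, *Ctla4*, *Icos*, *Pdcd1*, *Rgmb* and the CD40 ligand gene *Cd40lg*), 2 were expressed enough to test. *Cd28*, the receptor of CD80 and CD86, was at 19.2 to 28.3 CPM in control and 4.75 to 6.48 with IL-4, and fell again with IL-6 over IL-4 (log2 fold change -1.63, adjusted p = 0.00017) and over IL-13 (-0.86, adjusted p = 0.00975). In the IL-13 step the *Cd28* libraries overlapped, at 6.32 to 12.1 CPM with IL-13 and 4.23 to 6.51 with IL-6+IL-13. *Rgmb*, which encodes a binding partner of PD-L2, rose with IL-6 over IL-4 (0.92, adjusted p = 6.05e-07) and over IL-13 (0.60, adjusted p = 0.000121).

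Of 8 TNF superfamily costimulatory ligands, 5 were tested, and IL-6 over IL-4 raised 1 and lowered 2 (20.7% and 18.7% of all tested genes). *Tnfsf14*, which encodes LIGHT, was at 3.75 to 3.99 CPM in control, 0.775 to 1.15 with IL-4 and 9.61 to 10.7 with IL-4+IL-6 (3.30 over IL-4, adjusted p = 9.38e-11), and 1.58 to 2.25 with IL-13 and 5.50 to 5.91 with IL-6+IL-13 (1.67, adjusted p = 5.35e-07). *Tnfsf8* (-1.66) and *Tnfsf13b*, which encodes BAFF (-1.15), fell over IL-4, and did so over IL-13 (-1.67 and -1.30). *Tnfsf8* rested on at most 16 counts per library with IL-4 and 5 with IL-4+IL-6. Its IL-13 libraries spread from 0.964 to 2.82 CPM. Of 12 other checkpoint ligands, 8 were tested, and each IL-6 comparison raised 2 and lowered 2 (20.7% and 18.7% of all tested genes over IL-4, 12.1% and 13.5% over IL-13). *Pvr*, which encodes the TIGIT ligand CD155, rose from 20.9 to 21.6 CPM with IL-4 to 59.5 to 60.7 with IL-4+IL-6 (1.51, adjusted p = 9.82e-12) and by 0.74 over IL-13. *Nectin2* rose by 0.76 and 0.87, and *Cd200*, which encodes the ligand of the inhibitory receptor CD200R, fell by 2.31 and 1.97.

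Downstream of CD40, 8 of 11 signaling genes fell with IL-4 over control, against 35.9% of all tested genes, with *Birc3* (-1.90), *Relb* (-1.06) and *Traf1* (-0.86) the most changed. IL-6 raised 3 and lowered 2 of the 11 over IL-4, where all tested genes gave 20.7% and 18.7%, with *Traf6* (0.62), *Tnfaip3* (0.48) and *Map3k14* (-0.44) the most changed, and raised 2 over IL-13 (12.1% of all tested genes). Of 8 regulators of surface turnover, IL-6 raised 3 and lowered 1 over IL-4, beside the same shares of all tested genes. *Cmtm6*, which protects PD-L1 from degradation, rose by 0.50 over IL-4 (adjusted p = 5.95e-06) and 0.43 over IL-13 (adjusted p = 6.59e-05). Over IL-4, *Cops5* rose by 0.28 (adjusted p = 0.0320) and *Cmtm4* fell by 0.35 (adjusted p = 0.0103). *March1*, a ubiquitin ligase that removes CD86 from the surface, rose by 0.84 over IL-13 (adjusted p = 4.90e-06), and its difference over IL-4 was 0.08 (95% interval -0.13 to 0.29, adjusted p = 0.561). Of 9 transcription factors and feedback genes, IL-6 raised 3 and lowered 5 over IL-4, again beside 20.7% and 18.7% of all tested genes. *Socs3*, a feedback inhibitor of IL-6 signaling, was at 1.28 to 2.24 CPM with IL-4 and 121 to 143 with IL-4+IL-6, and at 1.03 to 1.66 with IL-13 and 105 to 110 with IL-6+IL-13. *Irf4* went from 36 to 38.1 CPM with IL-4 to 3.01 to 3.54 with IL-4+IL-6 (-3.51, adjusted p = 2.03e-12), and *Stat3* rose by 1.72 over IL-4 and 1.63 over IL-13.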

How the data were processed

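RNAseq was done on 15 libraries of BMDMs in 5 groups of 3. The authors deposited raw gene counts without normalization, and FPKM values that they derived from the counts, a gene length and the summed count. Per the submitters' processing notes, GRCm38, CASAVA, Bowtie2 2.2.3, HISAT2 2.1.0, TopHat2 and DESeq2 were used. The counting tool, annotation release and strand setting are not given in the sources used here, so reads of overlapping opposite-strand genes cannot be told apart.

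Counts were tested with edgeR 4.0.16 in R 4.3.3 (limma 3.58.1), in a single fit of all 15 libraries without covariates, with filterByExpr (minimum count 10), TMM scaling and glmQLFit and glmQLFTest. P-values were adjusted by Benjamini-Hochberg over all 13938 tested genes, and a gene was called at an adjusted p under 0.05. The procedure was tested on simulated data. Intervals are 95% and cover the spread between libraries. The named genes are all 10 members, the 3 called genes with the largest absolute log2 fold change of each pathway list in the contrast described, and binding partners of members. The members and lists were chosen with earlier results of these data known. Alternatives were RLE and upper-quartile scaling, DESeq2 1.42.0, no filter or a minimum count of 50, only the groups compared, a replicate block, and leaving out each library. No pairing of the samples by replicate number was detected.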

Additional observations from a re-analysis of the deposited data

Results flagged for a closer look

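The effect of adding IL-6 differed between IL-4 and IL-13 cultures, by the interaction test, for 5 of the 10 genes, against 7.64% of all tested genes. The log2 difference, IL-6 effect with IL-4 minus IL-6 effect with IL-13, was -0.87 for *Cd40*, -0.95 for *Cd83*, 0.73 for *Cd274*, 1.00 for *Pdcd1lg2* and -0.85 for *Vsir*. On leaving out any of 8 single libraries the *Pdcd1lg2* call was lost (edgeR adjusted p from 0.0502 to 0.104), and with only the 4 treated groups fitted the *Cd83* call was lost (0.0564). The doses of IL-4 and IL-13 differ, so cytokine and dose cannot be told apart in this difference.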

How the results depend on the processing

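Of the 18 counts of genes higher or lower, 125 of 126 values stayed within 1.5 times the main count when scaling, tool, filter, samples fitted or replicate block changed. The exception was the count of genes with a positive IL-6 interaction, 2 in the main analysis and 1 with the replicate block, where the *Pdcd1lg2* difference had an adjusted p of 0.0603 (edgeR). It was 1 to 2 on leaving out each library in turn. Same-numbered libraries deviated together with correlations of -0.144 to 0.163, and 3 of 15 libraries correlated best with their own number. No pairing by number was therefore detected over all comparisons. The highest correlations, 0.163 and 0.118, were between IL-6+IL-13 and IL-13, and the labels do not say whether same-numbered libraries share an animal. Of the single log2 fold changes, 620 of 630 kept their direction and call, and 561 of 600 did on leaving out a library. The changes of sign were all in uncalled differences. With IL-4 over control, *Cd276* was -0.0076 with a minimum count of 50 and ranged from -0.027 to 0.13 on leaving out each library. On leaving out each library, IL-6+IL-13 over IL-13 ranged from -0.33 to 0.039 for *Cd80* and from -0.34 to 0.16 for *Cd86*, IL-4+IL-6 over IL-6+IL-13 from -0.11 to 0.37 for *Cd86*, and the *Icosl* interaction from -0.49 to 0.21. The cause was not tested. The order of FPKM levels within groups kept 50 of 50 places with TMM-scaled FPKM and with TPM. With TMM-scaled FPKM, 44 of 50 levels moved by at most 1 SD and 6 by more. *Pdcd1lg2* in control, and *Icosl*, *Cd86* and *Cd276* in treated cells, rest on few counts per library, which limits their precision.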
